A study of Branchiostoma belcheri with 3 samples.

Results

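The array held 82 probes for amphioxus miRNAs numbered from miR-4800 to miR-4899, and their levels in gill, intestine and hepatic caecum are described here. The members were chosen by name, as probes with the prefix bbe (Branchiostoma belcheri) or bfl (Branchiostoma floridae) and a number in that range. From these miR-4868 and miR-4870 were left out, which had been set apart as high in hepatic caecum. That exclusion rested on values and not on the name. The members made up 82 of the 1686 miRNA probes on the array, 22 with the prefix bbe and 60 with the prefix bfl. They carried 41 different numbers. No probe of another species carried one of these numbers. The neighbouring numbers of the same range belonged to 65 probes of a hemichordate (prefix sko) or a sea urchin (prefix spu), of which 4 were detected in gill and 0 on the other arrays. The targets of the members were 19 to 24 nt long, with a median of 22 nt, and between 31.8% and 70.8% of their bases were G or C.

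The RNA came from adults of B. belcheri, a small marine invertebrate chordate that was collected from the sea and kept on algae. Gill, intestine and hepatic caecum (a pouch of the gut, spelled hepatic caecom in the labels) were taken, and each RNA sample was a mixture from 5 animals. RNA under 300 nt was extended with a poly(A) tail, tagged, stained with Cy3 and hybridised to 1 array per tissue. Sex, the animals behind single values and the cell types within each organ were not given, and a difference between tissues cannot be told apart from a difference between arrays.

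A miRNA is cut from a hairpin precursor, whose strands give the arms named 5p and 3p, and 1 arm is often kept at a higher level than the other. The mature strand guides a silencing complex to messenger RNAs, mainly through its seed, the bases just behind its 5′ end. Amphioxus and vertebrates share many conserved miRNAs, and beside these amphioxus has miRNAs such as the members, whose targets in the animal are not part of these data.

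The 9 members below are shown because they were the ones detected on every array. Sequences are the RNA targets listed in the deposited scanner files, written 5′ to 3′, with the seed (bases 2 to 8) in capitals.
bbe-miR-4856a-5p: aCGCAGUGacgucagcgccucu
bbe-miR-4857-5p: aCGAUGUUuuugucugcuccaga
bbe-miR-4863-5p: aGACAACAucagaaugucccu
bbe-miR-4869-5p: aCGAUGUUgacuuccgcuccucu
bfl-miR-4862-5p: aCGCGUUUaugucugcgccugu
bfl-miR-4863-5p: aGACAACAucagaaugucccuac
bfl-miR-4866-5p: uCACACUUguacuucuuagcau
bfl-miR-4871-3p: uUUGGCACugguacuuuggagu
bfl-miR-4874-3p: cUGGCUGGuuggugcaaacagg
Of these sequences 7 came from 5p arms and 2 from 3p arms. The targets of bbe-miR-4857-5p and bbe-miR-4869-5p share the seed CGAUGUU under different numbers. The targets of bbe-miR-4863-5p and bfl-miR-4863-5p match over all 21 bases they have in common.

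Each probe was printed as 2 spots, and its density is the mean of the median densities of these spots in the scanner's own units. A probe was called detected when its density lay above the blank mean plus 3 SD of the same array, where blanks are the 304 spots with no probe. The gill threshold was 139, that of intestine 220 and that of hepatic caecum 618, so the same density could pass in gill and fail elsewhere. The hepatic caecum values rest on a grid turned by 180 degrees against its deposited names. Control spots of that array correlated with those of the other arrays with r = 0.977 after the turn and 0.261 before it. Under the deposited names the blanks put the threshold of that array at 22217, which 4 of the 1686 miRNA probes and 0 of the 82 members passed. Probes of the miRNAs listed as tissue markers did not settle the tissue labels, since miR-122, known from vertebrate liver, was detected with 0 of 2 probes and miR-192 and miR-194, known from vertebrate gut, with 0 of 8 probes on any array. Probes of miR-34 and miR-449, known from vertebrate ciliated cells, were detected with 14, 4 and 4 of 27 probes in gill, intestine and hepatic caecum, and those of miR-1 and miR-133, known from muscle, with 14, 4 and 0 of 34. Errors of densities are SDs of the 2 spots of 1 probe, with n = 1 array per tissue. They leave out the spread between animals and between arrays, so no test between tissues was possible and the number of arrays limits the precision.

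In gill 36 of the 82 members were detected (43.9%), in intestine 23 (28%) and in hepatic caecum 9 (11%). The hepatic caecum count depended on the threshold, to which 2 blanks with densities over 1000 contributed, and with the threshold of 201 from the blank median it was 28. Over all 1686 miRNA probes the shares were 27% in gill, 11.9% in intestine and 7.18% in hepatic caecum. Among the other 178 amphioxus probes they were 70.2%, 33.1% and 23.6%. The members were thus detected less often than other amphioxus probes on each of the 3 arrays and more often than miRNA probes as a whole. The other amphioxus probes include miR-4868 and miR-4870, set apart as high in hepatic caecum, so the gap there depends in part on that choice. Members detected in intestine had a median G and C content of 50%, beside 47.8% for those not detected there, and in hepatic caecum these medians were 45.5% and 47.8%. By number, 21 of the 41 numbers were detected in gill, 14 in intestine and 8 in hepatic caecum.

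The detected members were largely nested between tissues, as were the miRNA probes as a whole. There were 9 members detected in all 3 tissues, 12 in gill and intestine, 15 in gill and in no other tissue, 2 in intestine and in no other tissue, and 0 in hepatic caecum alone. Gill alone held 39.5% of the detected members and 55.5% of all detected miRNA probes. For gill and intestine these shares were 31.6% and 17.5%, and for all 3 tissues 23.7% and 25.1%. For intestine alone they were 5.26% and 0.864% (2 and 4 probes), and for hepatic caecum alone 0% and 0.864%. Gill held 36 of the 38 detected members (94.7%) and 455 of all 463 detected miRNA probes (98.3%). The nesting followed the thresholds in part. Of the 15 members detected only in gill, 9 were dense enough in gill to have passed the intestine threshold, and 1 of them would have passed that of hepatic caecum. Of the 12 detected in gill and intestine, 3 were dense enough in intestine to have passed the hepatic caecum threshold. With the hepatic caecum threshold used on every array, 19 members were detected in gill, 10 in intestine and 9 in hepatic caecum. The remaining 44 members were detected on no array, with densities from 95.8 to 137 in gill, from 82.9 to 134 in intestine and from 152 to 358 in hepatic caecum.

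Some calls lay close to a threshold. In gill the nearest members above it were bfl-miR-4865-3p at 143 ± 8.1 and bfl-miR-4888 at 143 ± 10.5, and the nearest below it were bfl-miR-4864-5p at 138 ± 0.52 and bbe-miR-4891-3p at 137 ± 13.2. In intestine they were bbe-miR-4857-3p at 238 ± 29.4 and bfl-miR-4874-3p at 243 ± 18.0 above the threshold, and bfl-miR-4874-5p at 220 ± 8.8 and bfl-miR-4891-5p, both of whose spots read 215, below it. In hepatic caecum a wider gap separated bfl-miR-4871-3p at 936 ± 123 and bfl-miR-4874-3p at 1237 ± 86.6 from bbe-miR-4877-3p at 561 ± 23.9 and bfl-miR-4856b-5p at 539 ± 65.2.

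**Figure D1:**
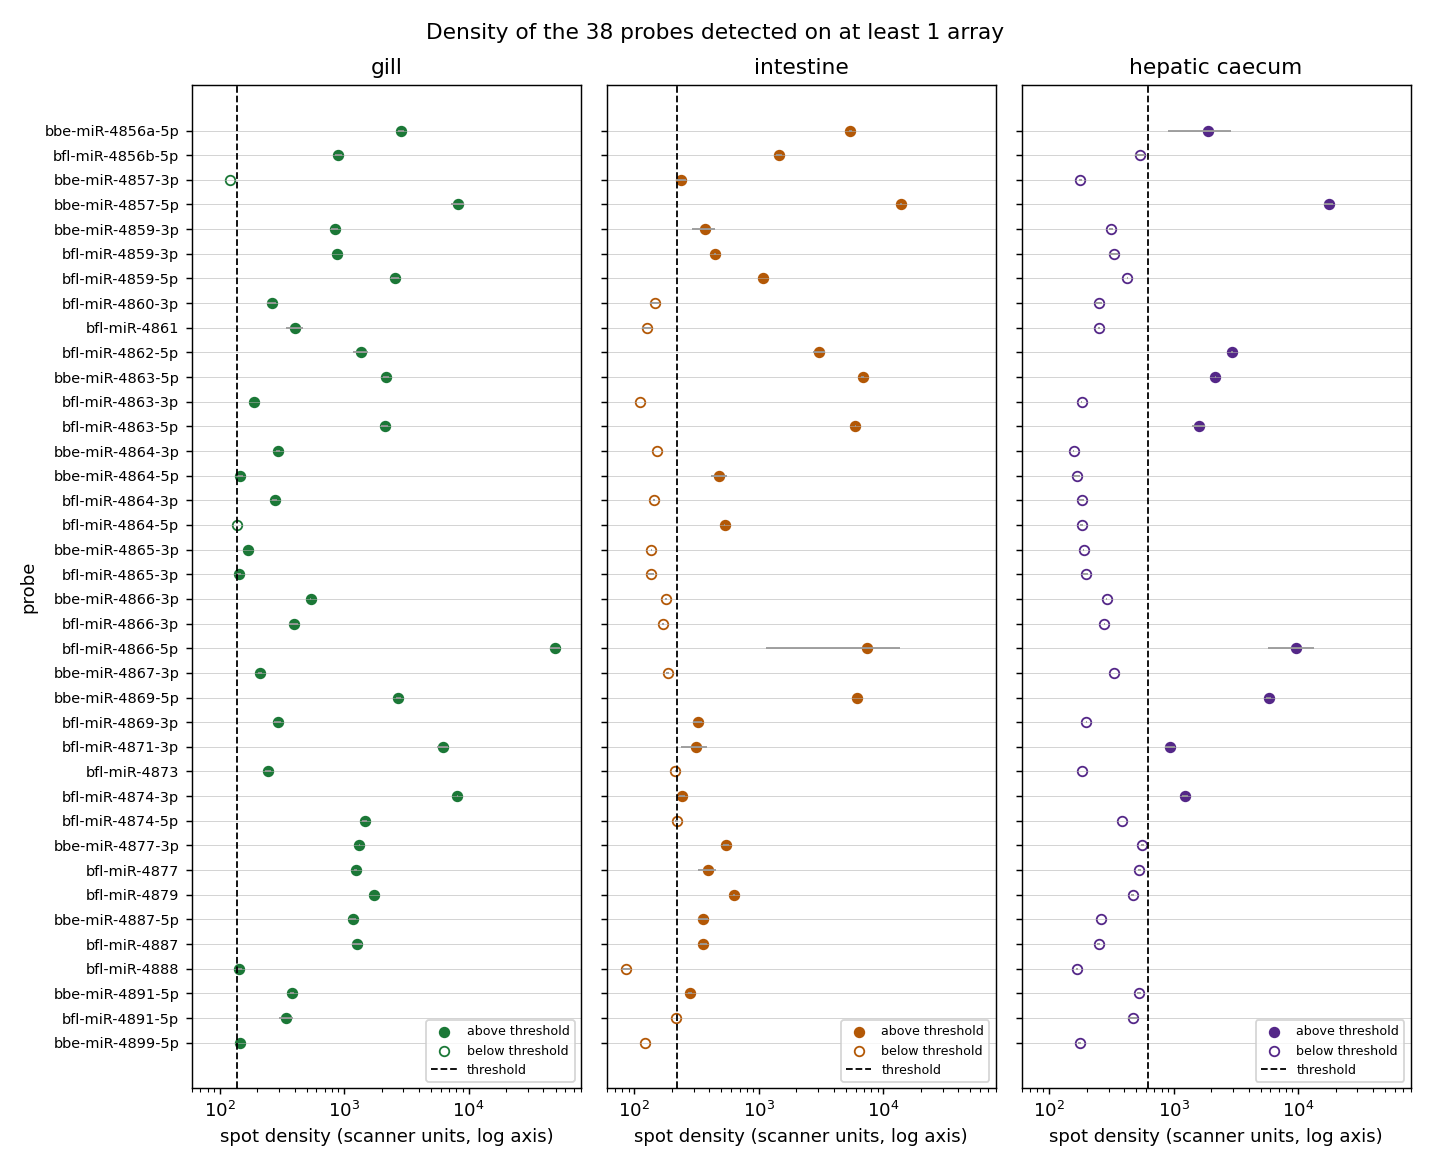
Density of the 38 members detected on at least 1 array, in scanner units on a log axis, with 1 panel per tissue. Points are means of 2 spots, and horizontal bars run from the lower to the higher of these spots. Filled points lie above the dashed threshold of the array and open points below it. The gill panel has 36 filled points, the intestine panel 23 and the hepatic caecum panel 9.

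The densities in the following paragraphs are as scanned, before any scaling between arrays, and the order of the tissues is that of these readings. The member bfl-miR-4866-5p was densest in gill. Its density was 49730 ± 6379 in gill, 7420 ± 8875 in intestine and 9571 ± 5451 in hepatic caecum. Gill was the highest of the 3 tissues, but the 2 spots in intestine disagreed by more than their own mean, so the size of the gap is poorly set. The density of bfl-miR-4874-3p was 8112 ± 129 in gill, 243 ± 18.0 in intestine and 1237 ± 86.6 in hepatic caecum. That of bfl-miR-4871-3p was 6246 ± 928 in gill, 312 ± 104 in intestine and 936 ± 123 in hepatic caecum. As scanned, gill was highest and intestine lowest for both of these 3p arms. The order of gill and hepatic caecum turned with the scaling, since after quantile normalization hepatic caecum stood above gill by 0.54 ± 0.30 (bfl-miR-4871-3p) and 0.30 ± 0.11 (bfl-miR-4874-3p) on the log2 scale, and under the 6 other scalings it stood below.

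The other 6 members detected in every tissue were 5p arms, and each was denser in intestine than in gill, as scanned and under every scaling tried. The density of bbe-miR-4863-5p was 2183 ± 172 in gill, 6820 ± 273 in intestine and 2164 ± 22.1 in hepatic caecum. That of bfl-miR-4863-5p was 2114 ± 208, 5977 ± 46.3 and 1592 ± 276 in the same order. Both probes of miR-4863-5p had their highest density in intestine. As scanned, hepatic caecum was close to gill for the bbe probe and below it for the bfl probe, whereas quantile normalization put it above gill by 2.38 and 2.20 on the log2 scale. The density of bbe-miR-4856a-5p was 2872 ± 232 in gill, 5443 ± 163 in intestine and 1903 ± 1425 in hepatic caecum, where its 2 spots lay far apart.

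For 3 members the scanned density in hepatic caecum was about as high as in intestine, or higher, whereas 5S rRNA centring put hepatic caecum more than 2-fold below intestine for each of them. The density of bbe-miR-4857-5p was 8211 ± 1455 in gill, 13902 ± 390 in intestine and 17621 ± 1996 in hepatic caecum, which was the highest of the 3. That of bbe-miR-4869-5p was 2731 ± 160 in gill, 6159 ± 51.9 in intestine and 5787 ± 327 in hepatic caecum. For bfl-miR-4862-5p the values were 1374 ± 270, 3062 ± 498 and 2934 ± 72.0. In the last 2 the gap between intestine and hepatic caecum was little more than the SD of the spots, or less, and gill was below both except that 5S rRNA centring put hepatic caecum below gill.

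**Figure D2:**
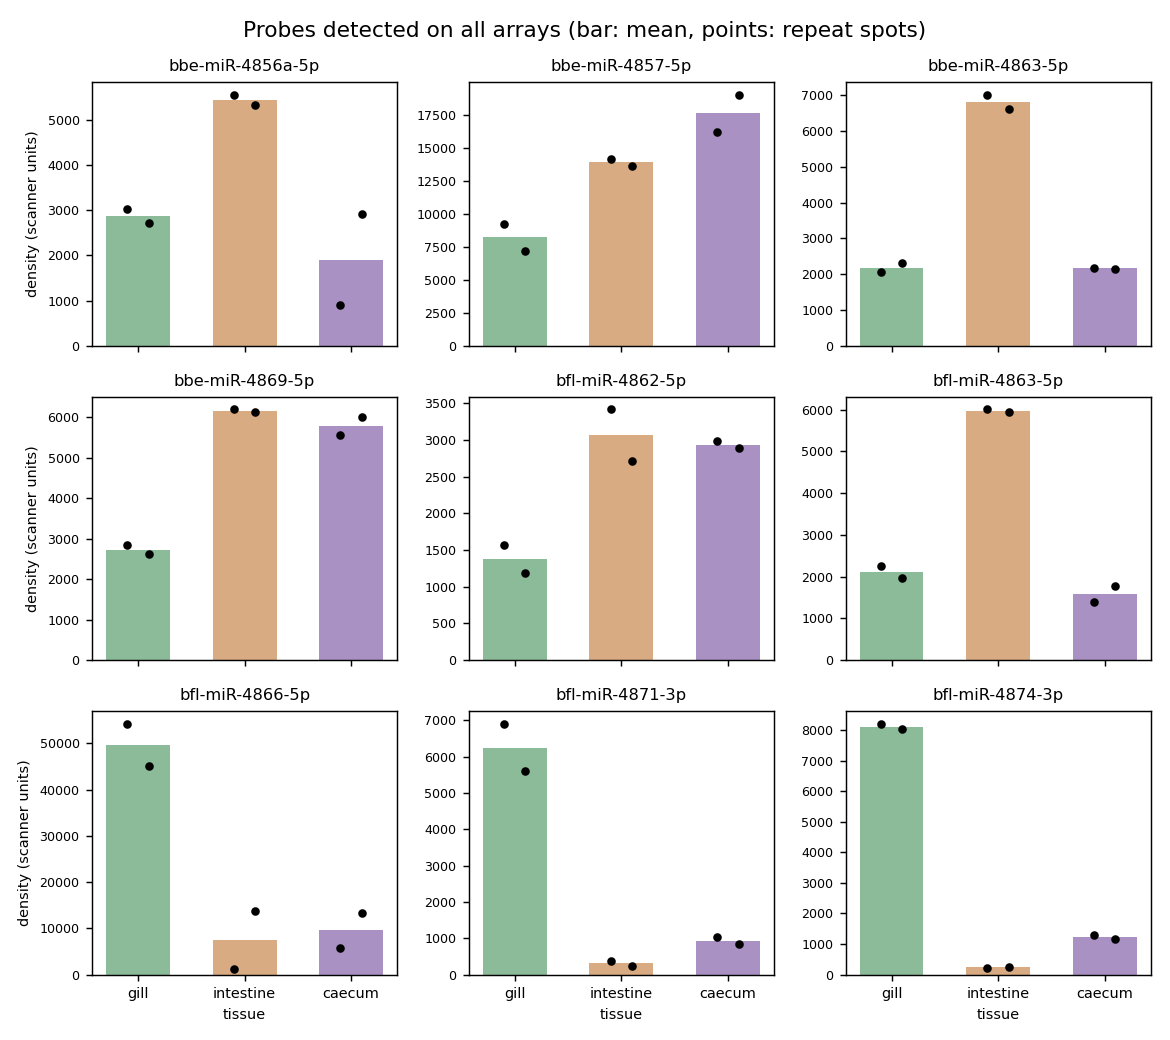
Density of the 9 members detected on every array, in scanner units on linear axes from 0, with 1 panel per member and its own scale. Bars are means and points are the 2 spots of 1 array, before any scaling between arrays. The 6 panels of the upper rows have higher bars in intestine than in gill, and the 3 panels of the lowest row have their highest bar in gill.

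To compare tissues, densities were corrected for background and quantile-normalized across the arrays, and log2 differences were read only for members detected in both tissues. Between intestine and gill 21 members could be compared. At least 2-fold higher in intestine were 12 of them, where 39.6% of the 197 miRNA probes detected in both tissues were, and at least 2-fold lower were 3, where 21.8% of these probes were. The median log2 difference was 1.10 over the members and 0.45 over all 197 probes. All 12 higher calls and 2 of the 3 lower ones exceeded 2 times the error from the spots. The split depended on the scaling of the arrays. Without normalization between arrays 5 members were higher and 11 lower, with medians of -1.02 over the members and -1.62 over all probes. Relative to the median of all probes the members stood higher in both settings.

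Intestine exceeded gill most for miR-4863-5p and miR-4862-5p. The log2 difference, intestine minus gill, was 3.83 ± 0.13 (error from the spots) for bbe-miR-4863-5p, 3.71 ± 0.15 for bfl-miR-4863-5p and 3.51 ± 0.38 for bfl-miR-4862-5p. Relative to the median of all probes these values were 3.38, 3.25 and 3.06. Next were bbe-miR-4869-5p at 3.46 ± 0.09, bbe-miR-4856a-5p at 3.16 ± 0.13, bbe-miR-4857-5p at 3.12 ± 0.26, bbe-miR-4864-5p at 2.94 ± 0.34 and bfl-miR-4856b-5p at 2.82 ± 0.20. All of these are 5p arms. Then followed bfl-miR-4869-3p, the 3p arm highest in this order, at 1.60 ± 0.24.

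These 9 members were denser in intestine than in gill under each of 6 other scalings, and 5 of them stayed at least 2-fold higher under all 6. The 5 were bbe-miR-4863-5p, bfl-miR-4863-5p, bbe-miR-4864-5p, bbe-miR-4869-5p and bfl-miR-4862-5p. Over all probes 19 of the 78 higher calls stayed at least 2-fold under the same scalings. The other 3 calls, for bbe-miR-4891-5p, bfl-miR-4859-3p and bfl-miR-4859-5p, had differences from 1.08 to 1.19 and changed sign without normalization between arrays.

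The members lower in intestine than in gill were bfl-miR-4874-3p, bfl-miR-4866-5p and bfl-miR-4871-3p. Their log2 differences were -2.39 ± 0.12, -2.12 ± 2.56 and -1.56 ± 0.57. All 3 stayed at least 2-fold lower under the 6 other scalings, as did 40 of the 43 lower calls over all probes. For bfl-miR-4866-5p the difference did not exceed its error from the spots. It was -0.36 from the second spot alone and -0.53 in the deposited table, both under 2-fold. Relative to the median of all probes the differences of the 3 members were -2.85, -2.57 and -2.01.

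**Figure D3:**
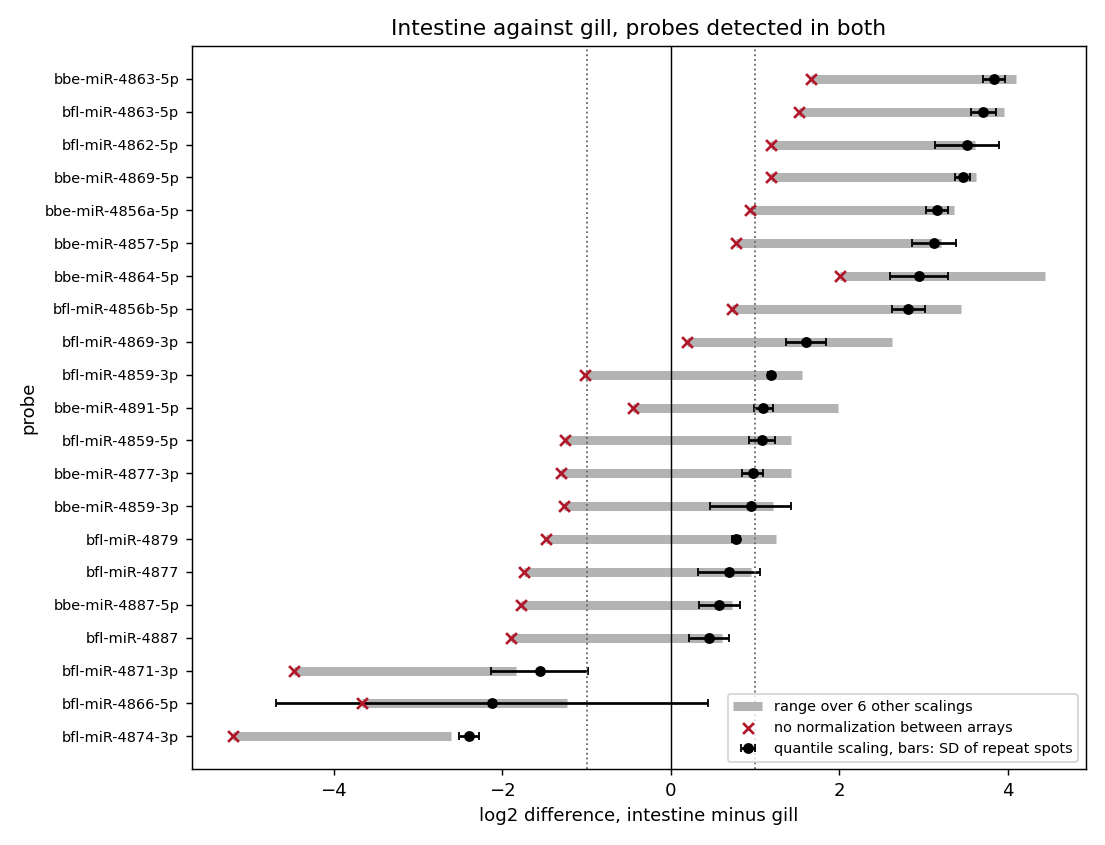
Log2 difference of intestine minus gill for the 21 members detected in both tissues. Black points are values after quantile normalization with the error from the spots of both arrays, red crosses are values without normalization between arrays, grey bars span 6 other scalings, and dotted lines mark a 2-fold difference. For 9 members the whole grey bar lies above 0, and for 3 members it lies below -1.

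A further 2 members were detected in intestine and not in gill, and for these the difference has only a lower bound. The density of bfl-miR-4864-5p was 532 ± 9.1 in intestine and 138 ± 0.52 in gill, which after quantile normalization puts intestine at least 8.76-fold higher. That of bbe-miR-4857-3p was 238 ± 29.4 in intestine and 121.99 ± 0.37 in gill, which puts intestine at least 3.91-fold higher. Leaving aside the deposited probe names, these bounds stayed at or above 4.82 and 2.03 in the alternatives. In the other direction bfl-miR-4874-5p was detected in gill at 1463 ± 112 and lay at 220 ± 8.8 in intestine, just under the threshold, which gave a bound of at least 1.498-fold higher in gill. None of the other members detected in gill alone of this pair reached a bound above 1.

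Between hepatic caecum and gill 9 members could be compared. After quantile normalization 6 exceeded their gill level at least 2-fold in hepatic caecum and 0 fell below it by 2-fold, where 41% and 9.4% of the 117 miRNA probes detected in both were. The median log2 difference was 2.20 over the members and 0.70 over all probes. The largest differences were 3.80 ± 0.31 for bbe-miR-4857-5p, 3.71 ± 0.12 for bbe-miR-4869-5p and 3.51 ± 0.30 for bfl-miR-4862-5p. Values of 2.38 ± 0.12, 2.20 ± 0.30 and 1.76 ± 1.28 were found for bbe-miR-4863-5p, bfl-miR-4863-5p and bbe-miR-4856a-5p. The only member below 0 was bfl-miR-4866-5p, at -0.92 ± 0.90, which is less than 2-fold.

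None of the 6 higher calls kept its direction under all 6 other scalings, because centring on 5S rRNA turned all of them. That centring put the median over all probes at -3.20, so the shift was not particular to the members. Over all probes 7 of the 48 higher calls stayed at least 2-fold under the same scalings. Without normalization between arrays 3 members were higher and 3 lower, with medians of -0.47 over the members and -1.77 over all probes. Even so the same 3 members stood at the top, at 1.11 for bbe-miR-4857-5p, 1.10 for bfl-miR-4862-5p and 1.08 for bbe-miR-4869-5p, and the same 3 at the bottom, between -2.51 and -2.86. Relative to the median of all probes bbe-miR-4857-5p stood at 3.11, bbe-miR-4869-5p at 3.01 and bfl-miR-4862-5p at 2.82, and bfl-miR-4874-3p, bfl-miR-4871-3p and bfl-miR-4866-5p at -0.40, -0.15 and -1.62.

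Between hepatic caecum and intestine the same 9 members could be compared, and 3 were at least 2-fold higher and 3 lower in hepatic caecum, where 24.1% and 12.1% of the 116 probes detected in both were. Lower in hepatic caecum were bfl-miR-4863-5p, with a log2 difference of -1.51 ± 0.27, bbe-miR-4863-5p at -1.46 ± 0.06 and bbe-miR-4856a-5p at -1.40 ± 1.27. These 3 calls stayed at least 2-fold lower under the 6 other scalings, as did 14 of the 14 lower calls over all probes, and that of bbe-miR-4856a-5p did not exceed 2 times its error. Higher in hepatic caecum were bfl-miR-4874-3p at 2.70 ± 0.16, bfl-miR-4871-3p at 2.10 ± 0.57 and bfl-miR-4866-5p at 1.20 ± 2.70. The value of bfl-miR-4866-5p was smaller than its error. Only bfl-miR-4874-3p kept its direction under all 6 other scalings, with a lowest difference of 0.31. None of the 3 stayed at least 2-fold higher under all of them, and over all probes 1 of the 28 higher calls did.

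The other 3 members differed less between these tissues in the main scaling. For bbe-miR-4857-5p, bbe-miR-4869-5p and bfl-miR-4862-5p the log2 difference between hepatic caecum and intestine was 0.68 ± 0.17, 0.24 ± 0.08 and 0.00 ± 0.24, each under 2-fold. With 5S rRNA centring they were -1.74, -2.18 and -2.16, all beyond 2-fold lower in hepatic caecum. Some members passed the threshold in intestine but missed that of hepatic caecum. Of these bfl-miR-4856b-5p had 1454 ± 130 in intestine and 539 ± 65.2 in hepatic caecum, a bound of at least 2.76-fold higher in intestine. For bfl-miR-4859-5p, with 1080 ± 3.2 and 425 ± 3.1, the bound was at least 2.36-fold. Other settings in the turned placement lowered these bounds to 2.34 and 1.89 at the most. In gill bfl-miR-4859-5p had 2567 ± 271, and its bound against hepatic caecum was at least 1.12-fold higher in gill, which did not hold under all alternatives.

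The probes of the 2 species were then compared. In total 15 of the 22 bbe members (68.2%) and 23 of the 60 bfl members (38.3%) were detected on at least 1 array. In gill the shares were 63.6% for bbe and 36.7% for bfl, in intestine 45.5% and 21.7%, and in hepatic caecum 18.2% and 8.33%. The RNA was that of B. belcheri, and the bfl members split by whether a bbe member of the same number was on the array. Of the 24 that had one, 15 were detected somewhere (62.5%), and of the 36 that had none, 8 were (22.2%). In gill the shares of these groups were 58.3% and 22.2%, and in intestine 37.5% and 11.1%. In hepatic caecum they did not differ, at 8.33% in both. The same splits were not made for the other amphioxus probes.

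By name, 17 bbe probes had a bfl counterpart of the same number and arm, where a bfl name without an arm was taken as the counterpart. Aligned targets held no substitution in 8 pairs and at most 5 in the others. Calls on all 3 arrays were the same in 11 pairs, and of the 13 pairs detected somewhere 7 had the same calls. Such targets are close to identical, so their probes can bind the same RNA and are not separate measurements of separate miRNAs.

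In 4 pairs both probes were detected in both intestine and gill. The log2 differences between these tissues were 3.83 and 3.71 for miR-4863-5p, 0.95 and 1.19 for miR-4859-3p, 0.97 and 0.69 for miR-4877, and 0.58 and 0.45 for miR-4887, with the bbe probe first. The distance between the probes of a pair was 0.19 in the median and at most 0.28, and in each pair it was below the combined error of the spots. For miR-4863-5p the distance was 0.18 for hepatic caecum minus gill and 0.05 for hepatic caecum minus intestine.

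**Figure D4:**
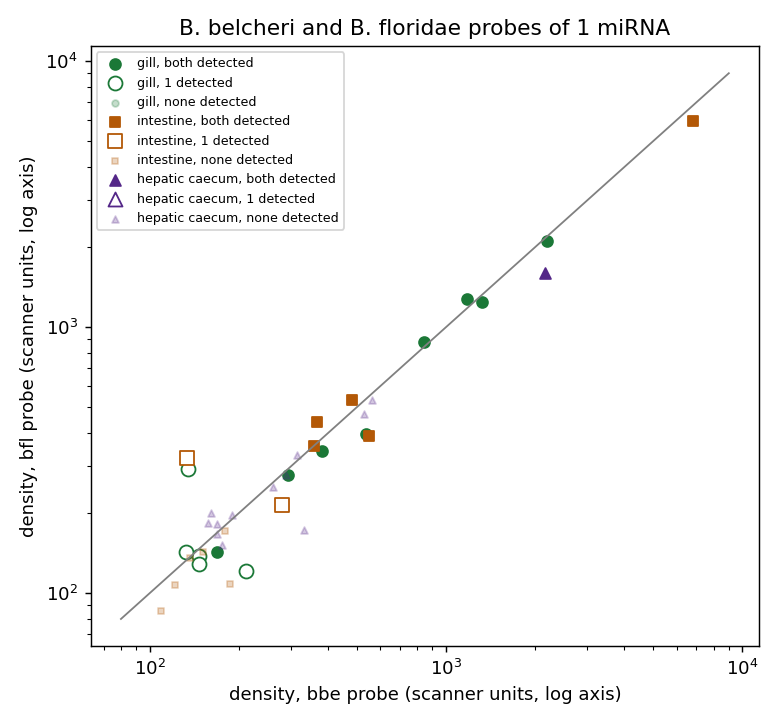
Densities of the 13 pairs of bbe and bfl probes detected on at least 1 array by 1 or both probes. The bbe probe is on the horizontal and the bfl probe on the vertical axis, both in scanner units on log axes. Each pair has 3 points for the 3 tissues, and the line marks equal density. Filled points had both probes above the threshold, open points 1 probe, and small pale points none. Most points lie near the line, and the open points of miR-4869-3p, at 135 for bbe against 294 for bfl in gill, lie well above it.

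The 6 pairs with different calls are shown in part below, because their targets differ by single bases or by the start. Substitutions are counted from 1 at the 5′ end of the bbe target, with the bbe base first, and the seed is in capitals.
bbe-miR-4869-3p: aGGGACCUguagucaacacgaca
bfl-miR-4869-3p: gGGACCUGuagucaacacgaga
bbe-miR-4867-3p: gGCGAGCCacggcuuaguggguuc
bfl-miR-4867: gGCGAGCCacggccuaguggguuc
bbe-miR-4864-5p: aGGGAGAUcaccucaggcauac
bfl-miR-4864-5p: aGGGAGAUcaccucaggcguac
The bfl target of miR-4869-3p starts 1 base later, which shifts its seed, and carries C22G. Its probe was detected in gill at 294 ± 27.3 and in intestine at 322 ± 37.4, whereas the bbe probe, at 135 ± 6.4 and 134 ± 0.28, was detected on no array. In this pair it was the probe of the studied species that was not detected.

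The pair of miR-4867 differs by U14C, and here the bbe probe was detected in gill at 212 ± 12.3 while the bfl probe lay at 121. The pair of miR-4864-5p differs by A19G, and the gill densities of 146 ± 10.8 and 138 ± 0.52 lay on either side of the threshold of 139, while both probes were detected in intestine at 483 ± 98.3 and 532 ± 9.1. The different calls in miR-4888, whose targets hold no substitution, came from gill densities of 132 for bbe and 143 for bfl around the same threshold. In miR-4891-5p, which differs by G21A, the intestine densities of 279 and 215 lay on either side of 220. In miR-4899 the bbe probe was just above the gill threshold at 147, and the bfl probe was at 129. In miR-4864-5p, miR-4888 and miR-4899 the differing calls were therefore between values near the gill threshold. In miR-4891-5p the bfl value lay near the intestine threshold, and the bbe value of 279 ± 15.3 lay clearly above it.

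The arms of the hairpins were compared next. Of 25 members named 5p, 16 were detected on at least 1 array, and of 26 named 3p also 16. In gill 15 of each were detected. In intestine 13 of the 5p and 7 of the 3p members were, and in hepatic caecum 7 and 2. Of the 31 members whose name gives no arm 6 were detected in gill, 3 in intestine and 0 in hepatic caecum. The 5p members were thus detected as often as the 3p members in gill and more often in intestine and hepatic caecum, with no test since probes are not replicates. These counts include bbe and bfl probes that can bind the same RNA. The same split by arm was not made for the other miRNA probes, so it cannot be called particular to the members.

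Both arms of 1 hairpin were on the array for 17 hairpins. Both arms were detected somewhere in 7 of them, the 5p arm alone in 6, the 3p arm alone in 3 and neither in 1. Calls on the 3 arrays were the same for both arms in 2 hairpins. Levels of different probes are not compared here, since each probe binds with its own strength, and the arms are compared by the tissues in which each was detected.

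**Figure D5:**
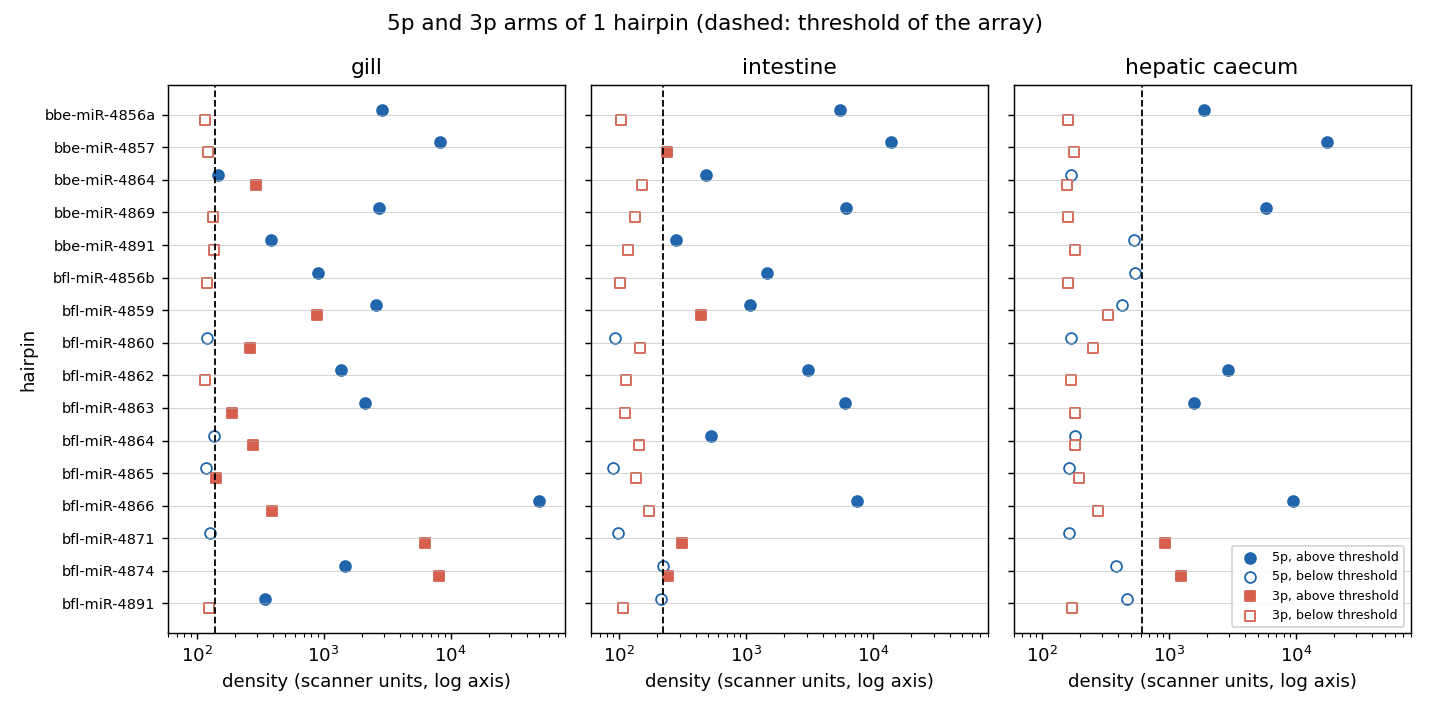
Densities of the 5p arm (blue circles) and the 3p arm (red squares) of the 16 hairpins with at least 1 arm detected, in scanner units on a log axis, with 1 panel per tissue. Filled symbols lie above the dashed threshold of the array and open symbols below it. In hepatic caecum 6 blue and 2 red symbols are filled.

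In bfl-miR-4863 and in both miR-4864 hairpins the 5p arm was detected in intestine and the 3p arm in gill alone. The 3p targets of miR-4864 are shown for that reason, to be read beside the 5p targets above.
bbe-miR-4864-3p: aGCCAGACcugaucucccugca
bfl-miR-4864-3p: uAGCCAGAccugaucucccugc
The 3p arm of miR-4864 was detected only in gill with both probes, at 294 ± 15.7 (bbe) and 278 ± 18.9 (bfl), and lay at 151 and 143 in intestine, below the threshold. The 5p arm stood at 483 and 532 in intestine, and at 146 and 138 in gill, where the bbe probe was detected and the bfl probe was not. In bfl-miR-4863 the 3p arm was detected in gill at 190 ± 0.085 and lay at 112 ± 0.69 in intestine, while the 5p arm had 2114 in gill and 5977 in intestine. The 3p values of both hairpins in intestine lay below the threshold of 220, and their bounds against gill were below 1, so no order of gill and intestine is given for that arm.

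In miR-4874 both arms had their highest scanned density in gill. The 5p arm had 1463 ± 112 in gill, 220 ± 8.8 in intestine and 384 ± 3.7 in hepatic caecum, and the 3p arm had 8112, 243 and 1237. After quantile normalization the log2 levels in hepatic caecum and gill were 9.06 and 8.92 for the 5p arm, which was not detected in hepatic caecum, and 11.33 and 11.02 for the 3p arm, so gill was not highest in that scaling. In miR-4866 the 3p arm, at 396 ± 44.3 with the bfl probe and 539 ± 3.5 with the bbe probe, was detected in gill alone, and the 5p arm in all tissues with gill highest. In bfl-miR-4859 both arms were detected in gill and intestine, the only hairpin with all 4 values. The log2 differences were 1.08 for the 5p arm and 1.19 for the 3p arm, and they lay 0.11 apart with an error of 0.16.

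The 5p arm alone was detected in miR-4856a, miR-4856b, miR-4862, bbe-miR-4869 and both miR-4891 hairpins. The densities of the 3p arms of these 6 hairpins lay from 116 to 137 in gill. For miR-4869 that holds for the bbe probe of the 3p arm only. The bfl probe of that arm was detected at 294 in gill and 322 in intestine. The 3p arm alone was detected in bfl-miR-4860, bfl-miR-4865 and bfl-miR-4871. For bfl-miR-4871 the 3p arm reached 6246 in gill and the 5p arm stood at 127 ± 14.3, under the threshold. In bbe-miR-4857 the 3p arm was detected in intestine at 238, and its 5p arm was detected in all 3 tissues.

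The members held 68 different seeds, and 3 of these occurred under more than 1 number. The seed CGAUGUU of bbe-miR-4857-5p and bbe-miR-4869-5p belonged to 2 members with higher scanned densities in intestine and hepatic caecum than in gill, of which the order of hepatic caecum and gill turned with 5S rRNA centring. The seed GUAGAGA was shared by bfl-miR-4860-3p and bfl-miR-4865-3p, which were detected only in gill, at 262 ± 30.9 and 143 ± 8.1. The seed UUACGUG was shared by bfl-miR-4861, detected in gill at 406 ± 88.1, and bfl-miR-4876, which lay at 137 and was detected nowhere. Those last targets also share a run of 11 bases, and their gill calls differed.
bfl-miR-4860-3p: uGUAGAGAuugugugacggguagu
bfl-miR-4865-3p: uGUAGAGAgagugacagguugu
bfl-miR-4861: uUUACGUGccacauugucuccu
bfl-miR-4876: cUUACGUGccacgugaggacucu

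A seed was shared with probes outside the members by 6 members, among them bfl-miR-4871-3p. Its seed UUGGCAC occurred in miR-96 probes of other species, in amphioxus miR-182 probes and in cin-miR-4099-5p. In vertebrates miR-96, miR-182 and miR-183 form a cluster known from sensory cells. Of the 8 other probes with the seed UUGGCAC 3 were detected in gill and 0 in intestine or hepatic caecum. In gill sko-miR-96-5p had 570 ± 112, dre-miR-96 468 ± 5.5 and bfl-miR-182a 143 ± 10.01. The miR-183 probes, whose targets share 11 bases with bfl-miR-4871-3p but not its seed, had 443 ± 22.1 (bbe), 392 ± 4.0 (bfl) and 428 ± 27.1 (dre, zebrafish) in gill and were detected on no other array. All of these were undetected in hepatic caecum, where bfl-miR-4871-3p had 936 ± 123. Even their gill densities, at most 570, lay below the hepatic caecum threshold of 618. The missing calls there therefore cannot show whether their tissue pattern differs from that of bfl-miR-4871-3p. How much of the signal of one probe comes from RNA of its relatives was not tested.
bfl-miR-4871-3p: uUUGGCACugguacuuuggagu
bbe-miR-183-5p: uAUGGCACugguagaauucacuga
sko-miR-96-5p: uUUGGCACuagcacauuuugc
dre-miR-96: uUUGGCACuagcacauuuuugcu

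Of the members dense in intestine, 5 shared sequence elements beyond the seed. Their targets held CG at bases 2 and 3 and, further on, GCNCC, where N is any base, read on the listed strand only. The elements are in capitals below.
bbe-miR-4856a-5p: aCGcagugacgucaGCGCCucu
bbe-miR-4857-5p: aCGauguuuuugucuGCUCCaga
bbe-miR-4869-5p: aCGauguugacuuccGCUCCucu
bfl-miR-4856b-5p: uCGcauugacgucaGCGCCgcaa
bfl-miR-4862-5p: aCGcguuuaugucuGCGCCugu
Both elements were found in 7 of the 1686 miRNA probes (0.415%), namely these 5 members and 2 lamprey probes, pma-miR-4604 and pma-miR-4608, which were detected on no array. None of the 178 other amphioxus probes (0%) held both. All 5 were 5p arms and were denser in intestine than in gill under every scaling tried. They need not be separate measurements. The targets of bbe-miR-4856a-5p and bfl-miR-4856b-5p are alike over most of their length, and those of bbe-miR-4857-5p and bbe-miR-4869-5p share a seed. Whether such probes bind the same RNA was not tested. The pattern was chosen after the values were seen, so it describes these probes and has no test. The miR-4863-5p and miR-4864-5p targets, which were denser in intestine as well, do not hold it.

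Shared runs of bases with other miRNAs were short for most members. For the 38 detected members the longest run shared with a probe of another number was 7 to 13 bases, with a median of 9. The run of 13 was that of bbe-miR-4856a-5p with pma-miR-4613, a lamprey probe that was not detected. The target of bfl-miR-4866-3p shares 10 bases with that of bbe-miR-33-2-3p, which had 3513 in gill, 1429 in intestine and 1723 in hepatic caecum. The probe of bfl-miR-4866-3p passed the threshold in gill alone, but its densities of 396, 171 and 278 followed the same order of tissues. Whether these probes share signal was not tested.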

How the data were processed

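Small RNA of B. belcheri was measured on 3 arrays, 1 per tissue. The deposited scanner files give, per the file headers, the median density of each of 3968 spots. The deposited series table gives an intensity per probe, and how the authors corrected and scaled it is not given in the sources used here. It follows the deposited names of the hepatic caecum array, and 0 columns of sample values were left unmapped. The turn of the hepatic caecum grid by 180 degrees was chosen after the data were seen.

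Densities were corrected by normexp with an offset of 50, converted to log2, averaged over 2 spots and quantile-normalized with limma 3.58.1 (R 4.3.3). Thresholds from blanks used densities as scanned, and the correlation of control spots used their log2 without correction. Control probes used for centring were corrected, converted to log2 and averaged. Summaries were made with Python 3.11.15, pandas 2.3.3 and numpy 2.4.6. The error of a log2 difference combines the log2 SDs of the spots on both arrays before normalization. A lower bound sets the detected level against the higher of the probe's own level and the lowest detected level in the other tissue. The steps were tested on simulated data.

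The members and lists were chosen with earlier results of these data known. Named were members detected in all tissues, the 3 largest differences each way and the 2 largest bounds per pair of tissues, the species and arm pairs farthest apart, members detected in intestine or hepatic caecum without gill, the 2 members nearest each threshold on either side, and members sharing a seed under different numbers. Other scalings, background settings, spots, filters, thresholds and the deposited table were tried. With 1 sample per tissue no p-value was computed.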

Additional observations from a re-analysis of the deposited data

How the results depend on the processing

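No paired analysis was possible because each tissue had 1 array. Where a result moved, the cause was not tested unless the alternative itself uses fewer or more probes. At the highest threshold 19 members were detected in gill and 10 in intestine, 17 species pairs had the same calls, and 5 of the 3p members were detected somewhere. With the threshold from the blank median 28 members were detected in hepatic caecum, and under the deposited names 0.

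For intestine against gill, leaving the arrays unscaled put 5 members higher and 11 lower, and spike-ins put 7 and 10. The lower count was 8 with the 75th percentile and 6 with 5S rRNA. For hepatic caecum against gill, 3 members were higher and 3 lower without normalization and with the 75th percentile, 0 and 6 with 5S rRNA, 0 and 4 with spike-ins, 13 and 2 without a filter on dim probes, and 0 and 8 in the deposited table. The lower count was 1 from the first spot and 1 with a signal over 500, and the higher count was 0 under the deposited names. For hepatic caecum against intestine, 0 were higher and 6 lower with 5S rRNA, 6 and 13 without a filter, 0 and 9 in the deposited table and 0 and 0 under the deposited names. With a signal over 500 the lower count was 6.

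Reversed log2 differences of hepatic caecum minus gill were as follows. Without normalization they were -0.90 for bbe-miR-4856a-5p, -0.045 for bbe-miR-4863-5p and -0.47 for bfl-miR-4863-5p. With the 75th percentile they were -0.66 for bbe-miR-4856a-5p and -0.23 for bfl-miR-4863-5p. With spike-ins they were -1.14 for bbe-miR-4856a-5p, -0.28 for bbe-miR-4863-5p and -0.71 for bfl-miR-4863-5p. With 5S rRNA they were -2.33 for bbe-miR-4856a-5p, -0.32 for bbe-miR-4857-5p, -1.48 for bbe-miR-4863-5p, -0.35 for bbe-miR-4869-5p, -0.33 for bfl-miR-4862-5p and -1.90 for bfl-miR-4863-5p. In the deposited table they were -0.77, -6.06, -3.45, -4.26, -3.003 and -3.77 in the same order. For hepatic caecum minus intestine, 5S rRNA gave -0.93 for bfl-miR-4866-5p and -0.47 for bfl-miR-4871-3p, and the deposited table gave -7.75 for bfl-miR-4866-5p, -3.26 for bfl-miR-4871-3p and -2.55 for bfl-miR-4874-3p. Of the values of single probes under the alternatives, 49 had the opposite sign, 25 of them for differences of at least 2-fold in the main setting (listed above) and 24 for smaller ones. The smaller ones were hepatic caecum minus gill of bfl-miR-4871-3p and bfl-miR-4874-3p and hepatic caecum minus intestine of bbe-miR-4857-5p and bbe-miR-4869-5p. The blank spots of the hepatic caecum array, with an SD of 144 beside 10.6 in gill, limit what can be detected there.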
